A study of Mus musculus with 30 samples.

Results

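The early transcriptional response to lipopolysaccharide (LPS) was described in dendritic cells that lack the transcription factor IRF4. Bone marrow-derived dendritic cells (BMDCs) came from C57BL/6 mice of 2 genotypes, CD11c-Cre alone (control) and CD11c-Cre IRF4 flox/flox (knockout), so both genotypes carry the Cre recombinase. CD11c-Cre drives deletion from a promoter active in dendritic cells and some macrophages, and cells that never turned it on can keep Irf4. Cultures were left unstimulated or received LPS for 6 or 24 hours, and CD11c+ cells were then taken with magnetic beads. The comparison rests on the 5 knockout arrays at 6 h and the 5 unstimulated knockout arrays (replicates 1 to 5 stand for A to E), 10 of the 30 arrays of the series. The 5 control arrays unstimulated, the 5 control arrays at 6 h and the 5 knockout arrays at 24 h serve only to show where this response differs. The dose of LPS and the ages of the mice are not given in the sources used here. Nor is it stated that replicates are separate mice or separate cultures, so the p-values speak to the spread among these arrays only.

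LPS of Gram-negative bacteria is bound by TLR4 with its co-receptors MD-2 and CD14. TLR4 signals through the adaptor MyD88, which leads to NF-kB and AP-1 and to cytokines such as TNF and interleukin 6, and through TRIF, which leads to IRF3 and interferon beta. Secreted interferon then acts through a complex with STAT2 and IRF9 on genes with an interferon response element. Dendritic cells that sense LPS mature: they raise costimulatory proteins and lower uptake functions. IRF4 is a member of the interferon regulatory factor family that is needed for some conventional dendritic cells and is known to compete with IRF5 for MyD88.

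Every array carried the sample in Cy5 and a universal mouse reference RNA in Cy3. Each level below is log2 of sample over reference, so it can be compared between arrays for 1 gene but not between genes. A difference of 1 on this scale is a 2-fold change, and a change given with ± is the log2 difference, LPS 6 h minus unstimulated, with its standard error. The model gave every group a mean, was fitted to 11253 named genes on all 30 arrays with limma, and called a gene at a Benjamini-Hochberg adjusted p under 0.05. Irf4 itself stood at -2.20, -0.85, -1.06, -0.84 and -2.51 on the 5 unstimulated knockout arrays and at -0.31, -0.11, -0.20, 0.41 and -0.34 at 6 h. The groups did not overlap, with means of -1.49 ± 0.80 and -0.11 ± 0.30 (SD, n = 5 each), a 2.61-fold difference (two-sided exact permutation test, p = 0.00794, which is the lowest value possible with 5 against 5 arrays). Control arrays stood at 1.41 ± 0.24 unstimulated and 2.31 ± 0.24 at 6 h (SD, n = 5 each), 7.48-fold and 5.34-fold above the knockout. Whether the probe lies inside the floxed part was not tested, so transcript from undeleted cells and transcript outside that part cannot be told apart.

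Promoters of 5 of the leading genes are shown first, to set the letters searched beside the genes that rose most. The windows run from 250 bases before to 50 after the start in the RefSeq annotation of GRCm38.p6, on the gene's own strand, 5′ to 3′. They lie at chr5:92348840-92349139 (minus strand) for Cxcl10, chr19:34640639-34640938 (plus) for Ifit1, chr4:156200769-156201068 (minus) for Isg15, chr5:30012864-30013163 (plus) for Il6 and chr5:90890995-90891294 (plus) for Cxcl1. Capitals mark the interferon response element core GAAANNGAA, the NF-kB letters GGANTTTCC and the AP-1 letters TGANTCA, searched on both strands (TGANTCA is its own reverse complement), and matches may overlap.
Cxcl10: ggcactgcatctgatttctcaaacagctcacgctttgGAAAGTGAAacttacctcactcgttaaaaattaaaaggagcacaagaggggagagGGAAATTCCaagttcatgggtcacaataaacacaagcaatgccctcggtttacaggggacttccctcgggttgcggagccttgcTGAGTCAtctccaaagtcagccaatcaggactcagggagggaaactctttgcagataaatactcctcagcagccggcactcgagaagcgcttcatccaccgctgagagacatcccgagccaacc
Ifit1: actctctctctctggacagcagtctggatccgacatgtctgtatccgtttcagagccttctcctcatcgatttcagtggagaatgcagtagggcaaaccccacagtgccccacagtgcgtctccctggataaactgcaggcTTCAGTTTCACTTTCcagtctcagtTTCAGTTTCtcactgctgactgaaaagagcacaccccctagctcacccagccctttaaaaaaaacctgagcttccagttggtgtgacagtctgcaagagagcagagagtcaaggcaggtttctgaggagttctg
Isg15: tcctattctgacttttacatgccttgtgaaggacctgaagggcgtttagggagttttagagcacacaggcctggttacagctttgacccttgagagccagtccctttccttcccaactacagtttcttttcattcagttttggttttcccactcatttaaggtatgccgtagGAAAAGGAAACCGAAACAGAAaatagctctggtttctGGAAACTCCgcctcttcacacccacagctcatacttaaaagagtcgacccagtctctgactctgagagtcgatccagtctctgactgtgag
Il6: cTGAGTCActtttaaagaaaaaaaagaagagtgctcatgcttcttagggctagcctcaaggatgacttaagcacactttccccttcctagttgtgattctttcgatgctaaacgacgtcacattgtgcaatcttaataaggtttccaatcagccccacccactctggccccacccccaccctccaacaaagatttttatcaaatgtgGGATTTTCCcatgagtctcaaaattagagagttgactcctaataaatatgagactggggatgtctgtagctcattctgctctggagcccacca
Cxcl1: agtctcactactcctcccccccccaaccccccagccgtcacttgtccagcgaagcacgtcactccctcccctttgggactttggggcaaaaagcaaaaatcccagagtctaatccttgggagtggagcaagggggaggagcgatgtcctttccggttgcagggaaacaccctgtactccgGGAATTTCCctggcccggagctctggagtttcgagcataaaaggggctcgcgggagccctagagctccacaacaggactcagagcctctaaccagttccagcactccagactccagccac
In the Cxcl10 window the interferon letters begin at position -213, the NF-kB letters at -158 and the AP-1 letters at -74 from the start. Ifit1 has 3 interferon matches, at -109, -103 and -84, the first 2 of which overlap. Isg15 has 3 overlapping interferon matches at -78, -72 and -66 and an NF-kB match at -41. Il6 has an AP-1 match at -249 and an NF-kB match at -43, and Cxcl1 an NF-kB match at -70. Of the 280 genes that rose at least 4-fold, 220 had a promoter in the table. The interferon letters were in 56 of these 220 (25.5%), in 74 of 1130 promoters of genes that fell (6.55%) and in 819 of 9072 promoters of all genes tested (9.03%). For NF-kB the shares were 7.27%, 1.33% and 1.63%, and for AP-1 16.4%, 7.17% and 6.94%. At least 1 of the 3 stood in 40.9% of the strong rises against 16.2% of all genes. Ifit2 and Ptx3, both among the 15 largest rises, held none of the 3, which says only that these letters are not in this window.

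The arrays were even in signal but not in likeness. Median raw Cy5 was 110 to 127 over the 10 arrays, 48.4% to 56.8% of 41174 probes were well above background, and no Cy5 spot was saturated. Unstimulated replicates 2 to 4 correlated at 0.988 to 0.990 with each other and at 0.871 to 0.933 with replicates 1 and 5. At 6 h replicates 1 to 3 correlated at 0.987 to 0.993 with each other and at 0.871 to 0.905 with replicates 4 and 5. Slides were shared unevenly, per the file headers: only 1 slide held both groups, with 1 array at 6 h and 3 unstimulated ones. Within it 2994 of the 2996 genes called (99.9%) and 1101 of 1101 called with at least a 2-fold change kept their direction. Those 4 arrays also took part in the calls, which favours the same direction. With slide as a fixed block far fewer genes were called, as given in the closing section. Of the dendritic cell markers, 9 of 12 were well above background on all 5 unstimulated arrays, among them Itgax, which encodes CD11c, and Zbtb46, while Cd209a was on none. The cultures also showed 11 of 12 macrophage markers and 5 of 13 neutrophil markers, with Elane on none. Defining genes of B cells (Ebf1, Pax5), plasmacytoid dendritic cells (Siglech) and erythroid cells (Gata1) were not well above background on any of the 10 arrays. The mean level of the macrophage list was 2.4 to 3.11 unstimulated and 2.35 to 3.36 at 6 h, and that of the dendritic cell list 1.46 to 2.72 and 2.59 to 3.32. Of the macrophage markers 2 rose, Fcgr1 and Msr1, and 1 fell, and the median of the list was 0.95 lower on LPS replicates 4 and 5 than on replicates 1 to 3; the part of cell composition in the results was not tested. In such bulk samples, a change in the share of a cell type and a change in RNA per cell cannot be told apart.

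A pair of control arrays went against their labels, and both lay on the 1 slide scanned later than the rest. Over the 61 genes that rose at least 16-fold in the knockout, the array labelled control LPS 6 h replicate 3 had a median level of -0.40. The other control arrays at 6 h had 3.54 to 4.59 and the unstimulated control arrays -0.30 to 0.03. Its Cxcl10 stood at -1.45 against 5.42 to 8.58 on the other 4. The array labelled control LPS 24 h replicate 2 had a median of 0.05 against 1.92 to 3.96 on the other 4. Neither takes part in the knockout means, but both widen the spread that the model shares over groups. Without these 2 arrays the standard error of Cxcl10 fell from 1.21 to 0.69 and that of Il6 from 1.04 to 0.34, and 3611 rather than 2996 genes were called, 1928 higher and 1683 lower.

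LPS changed 2996 of the 11253 genes (26.6%) by 6 h in the knockout, 1600 upward (14.2%) and 1396 downward (12.4%). The response leaned upward in size: 734 genes (6.52%) rose and 367 (3.26%) fell at least 2-fold, 280 rose and 36 fell at least 4-fold, and 61 rose and 0 fell at least 16-fold. An unadjusted p under 0.05 was reached by 4273 genes. The 2 groups of arrays did not overlap in 1562 genes on the upper side (13.9%) and 1235 on the lower side (11.0%). The median change over all genes was 0.02. Of the genes that rose at least 2-fold, 104 of 734 were not well above background on all unstimulated arrays and 32 on none of them. These passed the filter through a group other than the unstimulated knockout, which can be the LPS 6 h group itself. For a gene that entered through its LPS 6 h arrays, a rise follows in part from the filter. The list counts below include such members. With a filter that asked for signal well above background on all arrays of both groups, 1375 of 9778 genes rose and 1286 fell. Whether replicate numbers pair the arrays is uncertain, as given under the processing. With the number as a block 4776 genes were called, 2428 higher and 2348 lower. A pair of other scalings turned the balance: Agilent's own log ratios called 1383 higher and 1907 lower, and the Cy5 channel alone 1239 and 2125. Without the 4 arrays that stand apart (unstimulated 1 and 5, LPS 4 and 5), 2192 genes were called, 1228 higher and 964 lower. The 43 gene lists used below held 271 of the 734 strong rises (36.9%) and 55 of the 367 strong falls. The shares over all genes, 14.2% higher and 12.4% lower, are the background for every list count.

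**Figure D1:**
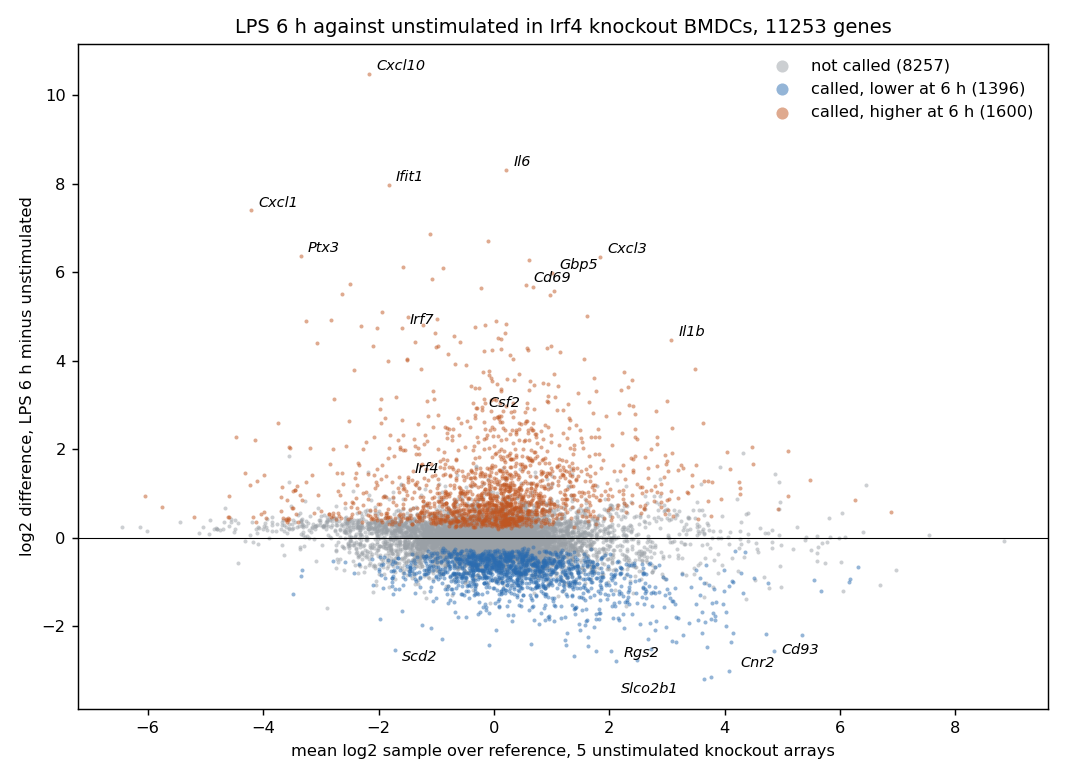
Change of each of 11253 genes in Irf4 knockout BMDCs (vertical axis, log2 difference, LPS 6 h minus unstimulated) against its mean level on the 5 unstimulated arrays (horizontal axis, log2 sample over reference). Called genes are coloured, 1600 higher and 1396 lower. Rises reach 10.48 and falls -3.18, so the cloud extends much further upward than downward.

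Of 30 cytokines listed, 23 were tested, 21 rose and 1 fell, with a median change of 2.38 against 0.02 over all genes; 9 of the 21 were not well above background on all unstimulated arrays. Il6, which drives the acute-phase response and plasma cell differentiation, stood at -0.91, 0.20, 0.24, 2.07 and -0.51 without LPS and at 8.02, 8.38, 8.71, 9.01 and 8.54 at 6 h. The groups were far apart and the change was 8.32 ± 1.04 (SE, limma adjusted p = 1.67e-06), or 319-fold; within the shared slide it was 7.42. Tnf, the first cytokine of the LPS response, stood at 0.80, -0.27, -0.09, -0.10 and 1.35 and then at 4.40, 4.37, 4.49, 4.39 and 4.23. It rose 16.5-fold, 4.04 ± 0.54 (SE, limma adjusted p = 3.47e-06). Il1b, the precursor of interleukin 1 beta that needs inflammasome cleavage, stood at 3.64, 1.91, 1.66, 2.51 and 5.65 and then at 7.65, 7.65, 7.84, 7.26 and 7.37. The unstimulated arrays were spread widely here, with replicates 1 and 5 high, yet all stood below all 5 LPS arrays, and the change was 4.48 ± 0.91 (SE, limma adjusted p = 0.000569). Il15, a survival cytokine for natural killer and memory CD8 T cells, stood at 0.18, 0.80, 0.89, 0.86 and 0.14 and then at 4.31, 4.65, 4.91, 5.46 and 5.02. It rose 19.6-fold, 4.30 ± 0.50 (SE, limma adjusted p = 7.48e-07), and its presenting receptor chain Il15ra rose 6.07-fold, 2.60 ± 0.32 (SE, limma adjusted p = 1.36e-06). Csf2, which encodes the growth factor GM-CSF, stood at -0.27, -0.23, -0.17, -0.12 and -0.29 and was not well above background on any unstimulated array. At 6 h it stood at 2.92, 3.23, 3.82, 2.03 and 1.33, at least 6.13-fold higher (limma adjusted p = 1.60e-07), with replicates 4 and 5 below the other 3. Tnfsf8, the ligand of CD30, was likewise not well above background on any unstimulated array and rose (limma adjusted p = 7.71e-05). Il12a, Il18, Il1a, Il27, Il23a and Ebi3 were among the other rises, and the 1 gene that fell was Tnfsf14.

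Chemokines, the attractants of neutrophils, monocytes and T cells, rose in 15 of 23 members tested (27 listed), with none lower and a median of 1.42; 6 of the 15 were not well above background on all unstimulated arrays. Cxcl10, the interferon-induced attractant of activated T cells, had the largest change of all genes. It stood at -2.34, -2.46, -2.20, -2.19 and -1.66 unstimulated, where it was not well above background on any array, and at 8.46, 8.72, 9.28, 7.79 and 7.32 at 6 h. That is a rise of at least 1367-fold (limma adjusted p = 6.34e-07). The neutrophil attractants of the same family followed. Cxcl1 stood at -4.19, -4.77, -3.92, -4.14 and -3.99 and then at 3.15, 3.26, 3.75, 3.01 and 2.83, a 169-fold rise, 7.40 ± 0.88 (SE, limma adjusted p = 8.98e-07). Cxcl3 stood at 2.31, 1.08, 0.88, 2.09 and 2.85 and then within a narrow band at 8.22, 8.18, 8.29, 8.11 and 8.19, an 82.0-fold rise, 6.36 ± 0.65 (SE, limma adjusted p = 1.28e-07). Cxcl2 stood at 1.29, 0.17, -0.14, 0.25 and 1.47 and then at 6.06, 6.78, 7.12, 7.31 and 7.15, a 77.5-fold rise, 6.28 ± 0.81 (SE, limma adjusted p = 2.21e-06). In none of these 4 genes did the groups overlap. The macrophage inflammatory proteins Ccl3 and Ccl4, the monocyte attractants Ccl2, Ccl7 and Ccl12, and Ccl5, Ccl17, Ccl22, Cxcl9, Cxcl16 and Ccl9 also rose.

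Receptors for attractants moved both ways, 6 higher and 5 lower among 22 tested, with a median of -0.08. Ccrl2, which presents the attractant chemerin without signalling, rose by 3.81 ± 0.65 (SE, limma adjusted p = 8.33e-05). The formyl peptide receptor Fpr2 stood at 1.56, 2.07, 2.30, 2.24 and 3.45 unstimulated and at 5.61, 5.51, 5.61, 5.94 and 6.06 after LPS, and rose by 3.42 ± 0.52 (SE, limma adjusted p = 2.05e-05). Fpr1 rose 4.73-fold, 2.24 ± 0.35 (SE, limma adjusted p = 2.99e-05). Fpr1 lost its call on Agilent's own log ratios. Ccr7, which guides maturing dendritic cells to lymph nodes, was among the rises. C5ar2, a second receptor for complement C5a, stood at 1.93, 2.31, 2.08, 2.20 and 1.64 and fell to -0.40, -0.79, -0.87, -0.18 and -0.33, -2.55 ± 0.28 (SE, limma adjusted p = 3.16e-07). Ccr2, Cxcr4, Ltb4r1 and P2ry6 were the other falls.

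**Figure D2:**
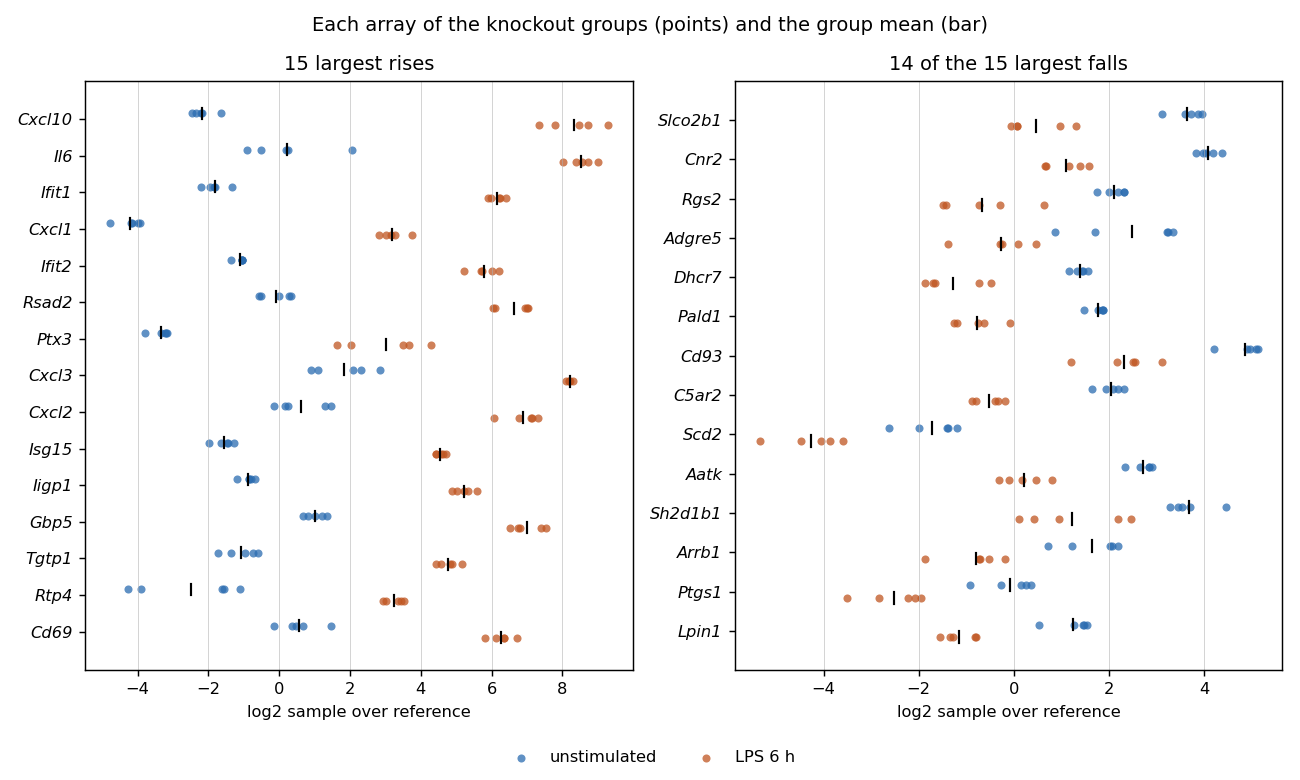
Level of the 15 genes with the largest rises (left) and of 14 of the 15 with the largest falls (right) on each of the 5 unstimulated and 5 LPS 6 h knockout arrays, as log2 sample over reference. Points are arrays and short bars are group means. The groups do not overlap in any of the genes shown, and the unstimulated arrays are spread widely for Rtp4 and Adgre5.

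Interferon genes and antiviral effectors had the most rises of the 43 lists. Of 59 listed, 44 were tested and 41 rose, all at least 2-fold, with none lower and a median of 3.27; 10 of the 41 were not well above background on all unstimulated arrays. Ifit1, which binds viral RNA that lacks host cap methylation, stood at -2.20, -1.96, -1.33, -1.83 and -1.80 and then at 5.99, 6.22, 6.42, 6.23 and 5.89. It rose 252-fold, 7.98 ± 1.00 (SE, limma adjusted p = 1.70e-06), and by 7.65 within the shared slide. Ifit2, a related effector, rose 118-fold, from -1.04, -1.35, -1.06, -1.04 and -1.04 to 5.72, 6.00, 6.21, 5.70 and 5.23, 6.88 ± 1.04 (SE, limma adjusted p = 1.85e-05). Rsad2 encodes viperin, an enzyme that makes a chain-terminating nucleotide. It stood at -0.52, 0.27, 0.33, -0.01 and -0.58 and then at 6.95, 7.0, 7.02, 6.09 and 6.03, a 105-fold rise, 6.72 ± 1.09 (SE, limma adjusted p = 4.01e-05). Isg15, a ubiquitin-like modifier, stood at -1.99, -1.46, -1.47, -1.28 and -1.63 and then at 4.42, 4.61, 4.72, 4.56 and 4.42, a 69.3-fold rise, 6.12 ± 0.81 (SE, limma adjusted p = 3.43e-06). Rtp4, a chaperone of membrane receptors, stood at -4.28, -1.62, -1.11, -1.55 and -3.90, with replicates 1 and 5 well below the other 3, and at 2.93, 3.34, 3.43, 3.53 and 3.01 at 6 h, 5.74 ± 0.76 (SE, limma adjusted p = 3.33e-06). Zbp1, a sensor of Z-form nucleic acids that can start necroptosis, stood at -0.86, 0.25, 0.39, 0.28 and -0.94 and then at 4.18, 4.19, 4.27, 3.90 and 3.71, an 18.6-fold rise, 4.22 ± 0.35 (SE, limma adjusted p = 6.47e-09). Ifnb1, the interferon beta gene, and the cytosolic RNA sensors Ifih1 and Ddx58 were also among the rises.

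GTPases that attack pathogen vacuoles rose in 15 of 16 GBP and IRG members tested, with a median of 3.82; 3 of the 15 were not well above background on all unstimulated arrays. Iigp1 stood at -0.86, -1.18, -0.81, -0.86 and -0.68 and then at 4.89, 5.03, 5.33, 5.58 and 5.23, a 68.2-fold rise, 6.09 ± 0.80 (SE, limma adjusted p = 2.73e-06). Gbp5, which helps inflammasome assembly, stood at 0.81, 1.35, 1.02, 1.21 and 0.66 and then at 6.74, 7.40, 7.55, 6.80 and 6.51, 63.6-fold, 5.99 ± 0.68 (SE, limma adjusted p = 4.65e-07). Tgtp1 rose 57.6-fold, 5.85 ± 0.71 (SE, limma adjusted p = 1.26e-06), and Gbp3 51.3-fold, 5.68 ± 0.74 (SE, limma adjusted p = 2.72e-06). Members of this family are close copies of each other and probes may share signal, so single members are less certain than the group. ADP-ribosyl transferases split: of 8 PARP genes tested 5 rose, led by Parp12 at 3.51 ± 0.43 (SE, limma adjusted p = 1.41e-06) and Parp14 at 3.31 ± 0.57 (SE, limma adjusted p = 7.74e-05). The DNA repair enzyme Parp1 fell from -1.38, -1.25, -1.43, -1.41 and -1.48 to -1.87, -2.08, -2.23, -2.16 and -2.0, -0.68 ± 0.17 (SE, limma adjusted p = 0.00455), a call that ended under median centring.

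Among the interferon regulatory factors, 5 of 11 tested rose and none fell, with a median of 0.34. Irf7, the amplifier of type I interferon, stood at -1.97, -1.55, -1.36, -1.58 and -1.46 and then at 3.19, 3.56, 3.46, 3.27 and 2.37, a 27.0-fold rise, 4.76 ± 0.80 (SE, limma adjusted p = 7.00e-05). Irf1 stood at -0.95, -0.08, -0.13, -0.12 and -0.39 and then at 3.23, 3.44, 3.73, 2.55 and 2.38, with replicates 4 and 5 lowest at 6 h, 3.40 ± 0.52 (SE, limma adjusted p = 1.80e-05). Irf9, the DNA-binding partner of STAT2, rose 3.86-fold, 1.95 ± 0.24 (SE, limma adjusted p = 1.38e-06). Irf5, which carries MyD88 signals to cytokine genes, stood at 1.21, 2.73, 2.43, 2.48 and 1.18 and then at 3.18, 3.48, 3.48, 3.04 and 2.41. Its groups overlapped, since LPS replicate 5 stood below 3 unstimulated arrays, and its rise of 1.11 ± 0.24 (SE, limma adjusted p = 0.000812) was not called under median centring. Irf3, the factor downstream of TRIF that is activated by phosphorylation, was at 0.06 ± 0.10 (SE, limma adjusted p = 0.697), and Irf8, a lineage factor of classical type 1 dendritic cells, at 0.18 ± 0.28 (SE, limma adjusted p = 0.671). Both kept overlapping groups, and the sign of both turned under median centring and in the Cy5 channel alone, that of Irf3 also on Agilent's log ratios.

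STAT factors and cytokine receptors rose in 19 of 48 tested and fell in 5, with a median of 0.29. Stat2 stood at -0.80, 0.33, 0.31, 0.12 and -0.95 and then at 3.94, 4.33, 4.26, 3.05 and 2.18, a 13.4-fold rise, 3.75 ± 0.59 (SE, limma adjusted p = 3.14e-05). Jak2, the kinase of the GM-CSF and interferon gamma receptors, rose 5.49-fold, from -0.73, 0.14, 0.17, 0.18 and -0.50 to 2.61, 2.78, 2.87, 1.75 and 1.53, 2.46 ± 0.27 (SE, limma adjusted p = 3.73e-07). Socs3, which curbs signals of interleukin 6, stood at -1.07, -1.44, -1.46, -1.62 and -0.98 and then at 1.79, 1.83, 2.20, 0.27 and 0.20. All LPS arrays were above all unstimulated ones, but replicates 4 and 5 rose less than replicates 1 to 3, and the change was 2.57 ± 0.48 (SE, limma adjusted p = 0.000235). Stat5a, Socs1 and Pim1 were among the other rises, and Il6st, Ifngr1 and Il1r1 among the falls.

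Of the Toll-like receptors and their adaptors, 11 of 29 rose and 1 fell, with a median of 0.46. Tlr2, the receptor for bacterial lipoproteins, stood at 1.71, 1.19, 1.57, 1.30 and 2.49 and then at 4.82, 4.88, 5.07, 4.41 and 4.45, an 8.41-fold rise, 3.07 ± 0.32 (SE, limma adjusted p = 1.55e-07). Irak3, an inhibitory kinase of the pathway, rose 5.56-fold, 2.48 ± 0.25 (SE, limma adjusted p = 1.28e-07). Tlr3, the receptor for double-stranded RNA, stood at 0.53, 0.13, 0.24, 0.28 and 0.18 and then at 2.92, 3.24, 3.53, 1.85 and 1.59, 2.35 ± 0.47 (SE, limma adjusted p = 0.000427). Cd14, the LPS co-receptor, stood at 1.86, 1.09, 1.11, 0.88 and 1.77 and then at 3.43, 3.41, 3.40, 1.90 and 2.37; the groups did not overlap, yet at 1.56 ± 0.62 (SE, limma adjusted p = 0.0641) it was not called. It was called without the 4 arrays that stand apart, without LPS replicate 4, and with the replicate block or a term for replicates 1 to 3 against 4 and 5. Fits of only the arrays compared, of only the knockout arrays and without the later slide called it too. Cytosolic sensors and inflammasome genes rose in 10 of 16, with none lower and a median of 1.31. Clec4e, which senses mycobacterial glycolipid and dead cells, stood at 1.08, -0.99, -0.91, -0.56 and 2.02, replicates 1 and 5 being high, and at 4.37, 4.30, 4.44, 4.44 and 4.48 at 6 h. It rose 19.4-fold, 4.28 ± 0.76 (SE, limma adjusted p = 0.000129). Casp4, the mouse caspase-11 gene and the cytosolic LPS sensor, rose 10.8-fold, 3.43 ± 0.54 (SE, limma adjusted p = 3.07e-05). Mefv, which encodes pyrin, rose by 2.95 ± 0.38 (SE, limma adjusted p = 2.18e-06) and Nod2, which senses muramyl dipeptide, by 2.31 ± 0.40 (SE, limma adjusted p = 9.74e-05).

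NF-kB genes rose in 21 of 25 tested and fell in 1, with a median of 1.25. The inhibitors led. Nfkbiz, a nuclear IkB protein needed for a second wave of genes such as Il6 and Lcn2, stood at -2.95, -3.36, -3.16, -3.16 and -2.67 and then at 1.57, 1.86, 2.31, 0.53 and 0.40, a 21.1-fold rise, 4.40 ± 0.54 (SE, limma adjusted p = 1.34e-06). Tnfaip3, which encodes the deubiquitinase A20, stood at 0.52, -0.53, -0.50, -0.48 and 0.84 and then at 3.60, 3.83, 4.00, 3.07 and 3.1, 11.7-fold, 3.55 ± 0.46 (SE, limma adjusted p = 2.08e-06). Nfkbia, which holds NF-kB in the cytoplasm, stood at -0.62, -0.20, -0.13, -0.23 and -0.39 and then at 2.94, 3.02, 3.27, 2.05 and 1.85, 7.68-fold, 2.94 ± 0.41 (SE, limma adjusted p = 7.23e-06). In both of the last, LPS replicates 4 and 5 stood at or near the lower end. Traf1, an adaptor of TNF receptors, rose 12.2-fold, from 0.53, 2.24, 2.42, 2.35 and 1.16 to 5.33, 5.31, 5.46, 5.41 and 5.24, 3.61 ± 0.38 (SE, limma adjusted p = 1.97e-07). The subunits Nfkb1, Nfkb2, Rel and Relb rose too. Rela, the p65 subunit, was at 0.75 ± 0.45 (SE, limma adjusted p = 0.219), its LPS arrays being 1.39, 1.5, 1.37, -0.17 and -0.11 against 0.16, 0.39, 0.18, 0.08 and -0.59 unstimulated, so that replicates 4 and 5 overlapped the unstimulated group. With the replicate block it was called (limma adjusted p = 0.00988).

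Immediate-early and related factors moved both ways, 15 higher and 8 lower of 45, with a median of 0.18. Batf2, an interferon-induced AP-1 partner, rose by 2.99 ± 0.51 (SE, limma adjusted p = 7.39e-05) and Batf by 1.54 ± 0.36 (SE, limma adjusted p = 0.00214). Klf4, Cebpa, Egr2, Myc, Fos, Jun and Atf5 were among the falls. Genes that end inflammation were split as well, with 7 higher and 5 lower of 29 (24.1% and 17.2%, against 14.2% and 12.4% of all genes). Zc3h12a, a ribonuclease that cuts cytokine mRNA, stood at 0.62, 0.49, 0.59, 0.55 and 1.24 and then at 3.99, 4.22, 4.45, 2.64 and 2.73, 2.91 ± 0.43 (SE, limma adjusted p = 1.53e-05). Il1rn, the antagonist of the interleukin 1 receptor, rose 3.08-fold, 1.62 ± 0.30 (SE, limma adjusted p = 0.000179). Rgs2, which shortens Gq signals, stood at 1.75, 2.31, 2.31, 2.19 and 2.01 and fell to -0.73, -1.50, -1.43, -0.30 and 0.64, -2.78 ± 0.34 (SE, limma adjusted p = 1.26e-06).

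**Figure D3:**
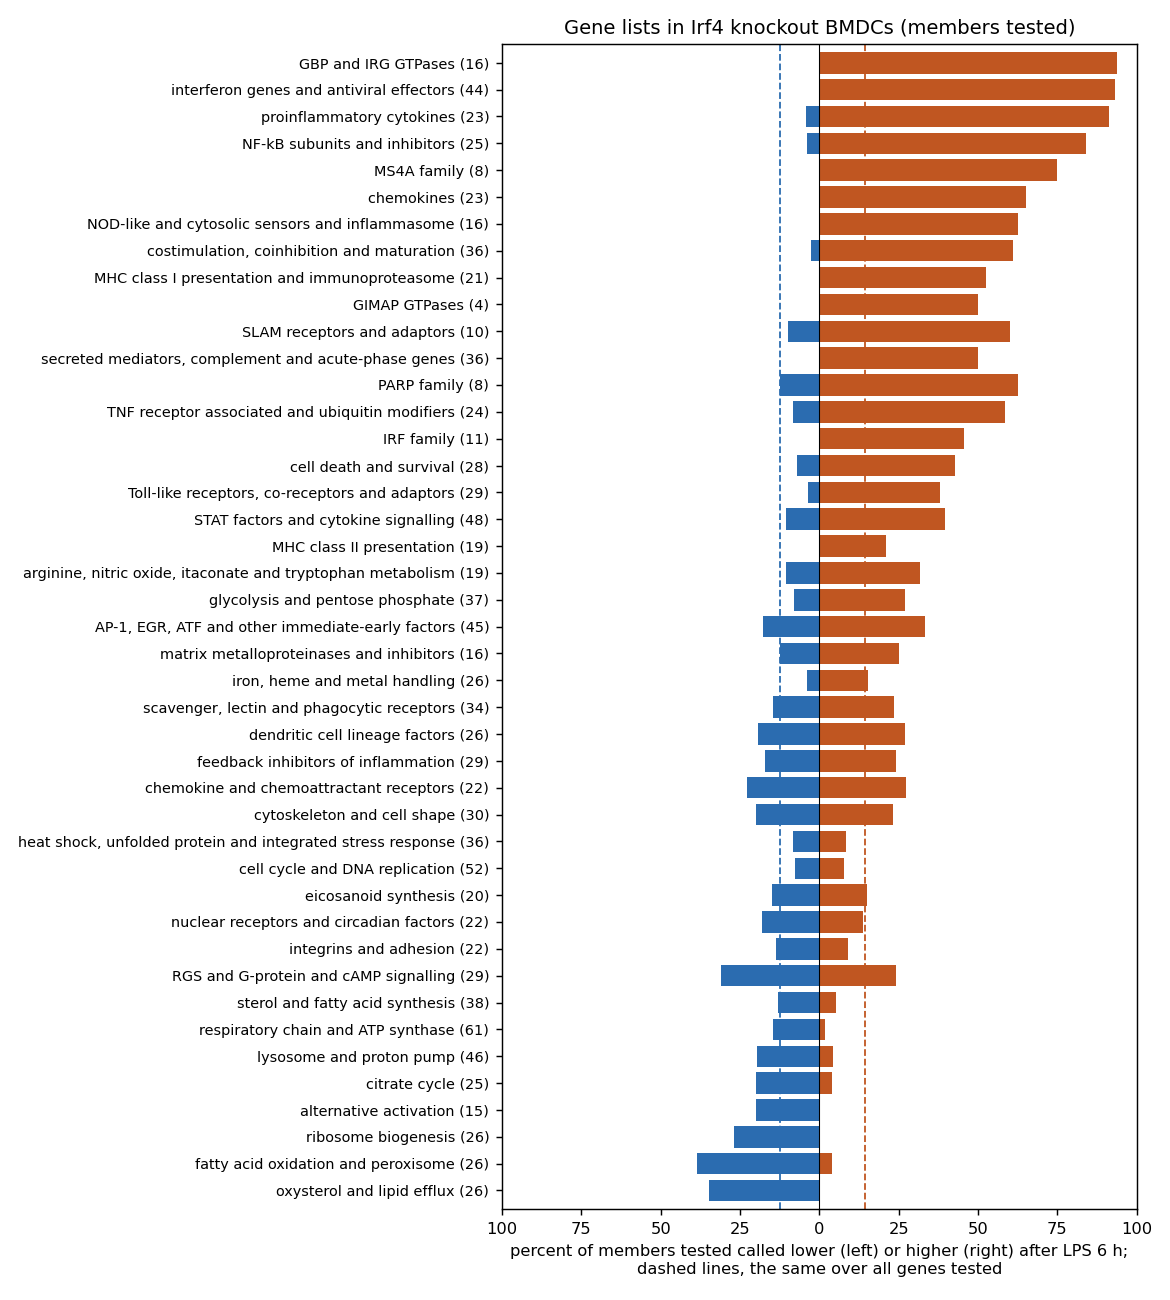
Percent of the tested members of each of 43 gene lists that were called higher (right) or lower (left) at 6 h in the knockout, with the number tested in brackets; dashed lines give the same over all 11253 genes, 14.2% higher and 12.4% lower. Interferon, GTPase, cytokine and NF-kB lists reach furthest right. The lists of oxysterol handling and of fatty acid oxidation reach furthest left.

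Maturation genes rose in 22 of 36 tested and 1 fell, with a median of 1.11. Cd69, which holds cells in tissue by removing a lipid receptor, stood at -0.15, 0.67, 0.46, 1.47 and 0.37 and then at 5.82, 6.13, 6.35, 6.71 and 6.35, a 52.3-fold rise, 5.71 ± 0.67 (SE, limma adjusted p = 7.39e-07). Icosl, the ligand of the T cell costimulator ICOS, stood at 1.01, 1.09, 0.99, 0.84 and 0.76 and then at 4.65, 4.75, 4.70, 4.13 and 3.87, an 11.2-fold rise, 3.48 ± 0.30 (SE, limma adjusted p = 1.11e-08). Marcksl1, an actin-binding maturation marker, rose 16.5-fold, 4.04 ± 0.53 (SE, limma adjusted p = 2.72e-06). Cd80, Cd86, Cd83, Cd274, Icam1 and Fscn1 were among the other rises. Vsir, which encodes the inhibitory ligand VISTA, was the 1 fall, from 3.53, 4.14, 4.22, 4.12 and 3.15 to 2.74, 2.33, 2.03, 0.87 and 2.34, -1.77 ± 0.45 (SE, limma adjusted p = 0.00445).

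The 2 presentation pathways differed in their counts. MHC class I presentation rose in 11 of 21, with a median of 0.87, and class II presentation in 4 of 19, with a median of 0.14; none fell in either, and whether the lists differ was not tested. Tap1, the peptide transporter, stood at -0.40, 0.48, 0.06, 0.30 and -0.69 and then at 2.99, 3.32, 3.19, 2.76 and 1.82, 2.87 ± 0.41 (SE, limma adjusted p = 7.81e-06). Psmb9, an immunoproteasome subunit, rose 6.27-fold, 2.65 ± 0.28 (SE, limma adjusted p = 1.78e-07). B2m, the invariant chain of class I, stood at 0.17, 1.29, 0.98, 1.06 and -0.20 and then at 1.58, 1.90, 1.62, 0.18 and 0.27, with overlap, and was at 0.45 ± 0.55 (SE, limma adjusted p = 0.581). In class II, H2-Oa, part of the peptide-editing modulator DO, rose by 1.29 ± 0.30 (SE, limma adjusted p = 0.00209), a call lost without the 4 arrays that stand apart, where 1 of 19 members was called higher and 1 lower. Cd74, the invariant chain, was at 0.62 ± 0.35 (SE, limma adjusted p = 0.199), and was called with the replicate block (limma adjusted p = 0.0199).

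Secreted mediators rose in 18 of 36 tested and none fell, with a median of 1.18; 5 of the 18 were not well above background on all unstimulated arrays. Ptx3, a pattern recognition pentraxin, stood at -3.79, -3.34, -3.20, -3.18 and -3.24 and then at 3.50, 3.67, 4.28, 2.04 and 1.63, an 83.0-fold rise, 6.38 ± 0.72 (SE, limma adjusted p = 4.97e-07), with LPS replicates 4 and 5 lowest. Edn1, the vasoconstrictor endothelin 1, stood at -1.31, -1.31, -1.20, -0.92 and -0.15 and then at 3.73, 3.93, 4.32, 4.15 and 3.70, 4.95 ± 0.59 (SE, limma adjusted p = 1.10e-06). Saa3, an acute-phase apolipoprotein, rose 30.2-fold, 4.91 ± 1.00 (SE, limma adjusted p = 0.000546). Timp1, an inhibitor of matrix proteases, rose by 3.13 ± 0.65 (SE, limma adjusted p = 0.00071), whereas Timp2 fell from -1.23, -0.39, -0.50, -0.52 and -1.90 to -2.74, -2.86, -3.17, -3.78 and -3.42, -2.29 ± 0.50 (SE, limma adjusted p = 0.00115). Hamp, which encodes the iron regulator hepcidin, was not well above background on any unstimulated array and rose to 2.84, 3.04, 2.96, 3.80 and 3.18 at 6 h (limma adjusted p = 1.65e-05). Lcn2, a siderophore-binding protein, stood at -1.21, -0.78, -0.68, -0.76 and -0.63 and then at 1.38, 1.30, 1.13, 2.41 and 2.16, 2.49 ± 0.48 (SE, limma adjusted p = 0.000289), with replicates 4 and 5 above the other 3.

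Enzymes that make small mediators changed in few but large steps. In arginine, nitric oxide and itaconate metabolism 6 of 19 rose and 2 fell. Nos2, the inducible nitric oxide synthase, was not well above background on any unstimulated array and stood at 3.05, 3.31, 3.62, 1.44 and 0.88 at 6 h, at least 5.12-fold higher (limma adjusted p = 0.0146). Replicates 4 and 5 were again the lowest. Gch1, which makes its cofactor, rose 6.33-fold, 2.66 ± 0.38 (SE, limma adjusted p = 9.57e-06), and Sod2, mitochondrial superoxide dismutase, rose by 2.88 ± 0.57 (SE, limma adjusted p = 0.000401). In prostaglandin and leukotriene synthesis 3 of 20 rose and 3 fell (15% each, close to the shares over all genes). Ptgs2, the inducible cyclooxygenase, went from below background to 3.1, 3.36, 3.93, 2.21 and 1.81, at least 44.0-fold higher (limma adjusted p = 1.63e-06), and the terminal enzyme Ptges rose 7.58-fold, 2.92 ± 0.59 (SE, limma adjusted p = 0.000555). The constitutive cyclooxygenase Ptgs1 went the other way, from -0.28, 0.25, 0.36, 0.16 and -0.93 to -1.96, -2.22, -2.07, -3.51 and -2.83, -2.43 ± 0.53 (SE, limma adjusted p = 0.00112). Alox5, which starts leukotriene synthesis, and Lta4h, a later enzyme of that pathway, fell too.

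Lists of lipid handling held more falls than rises. In oxysterol and lipid efflux 9 of 26 fell and none rose, with a median of -0.66. Nceh1, which frees stored cholesterol, stood at 3.42, 3.36, 3.42, 3.33 and 2.82 and then at 1.58, 1.12, 1.00, 0.37 and 1.37, -2.18 ± 0.39 (SE, limma adjusted p = 0.00012). Pparg, the nuclear receptor of lipid uptake, stood at 2.95, 2.73, 2.66, 2.66 and 2.95 and then at 1.04, 0.25, -0.16, 0.70 and 1.69, -2.09 ± 0.30 (SE, limma adjusted p = 8.90e-06), and Angptl4, one of its targets, fell by 1.78 (SE 0.40, limma adjusted p = 0.00143). In fatty acid oxidation 10 of 26 fell and 1 rose, with a median of -0.39. In sterol and fatty acid synthesis 5 of 38 fell and 2 rose, a share close to the background of falls. The largest change in this list was a rise, that of Acsl1 by 3.04. Dhcr7, the last enzyme of cholesterol synthesis, stood at 1.56, 1.43, 1.33, 1.45 and 1.17 and then at -0.48, -1.65, -1.86, -1.71 and -0.73, -2.67 ± 0.41 (SE, limma adjusted p = 2.05e-05), and Scd2, a fatty acid desaturase, fell 5.81-fold, -2.54 ± 0.67 (SE, limma adjusted p = 0.00538); Elovl5 and Ebp fell by 1.41 and 0.77.

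In the respiratory chain 9 of 61 fell (14.8%, close to the 12.4% of all genes) and 1 rose, with a median of -0.29 and no change of 2-fold. Ndufs7, a complex I subunit, stood at -0.63, -0.40, -0.46, -0.44 and -0.64 and then at -1.22, -1.28, -1.44, -1.40 and -1.23, -0.80 ± 0.17 (SE, limma adjusted p = 0.000678), while the gene that rose was Cycs, cytochrome c, 0.72 ± 0.17 (SE, limma adjusted p = 0.00179). These counts depended on the fit: with the replicate block 27 fell and 2 rose, with median centring 1 fell, and in the Cy5 channel alone 19 fell. Lysosome genes fell in 9 of 46 (19.6%, against 12.4% of all genes) and rose in 2. They had 18 falls under the replicate block and 4 without the 4 arrays that stand apart. Ribosome biogenesis fell in 7 of 26 and rose in none, with 11 falls under the replicate block, 2 under median centring and 1 without those 4 arrays. In oxysterol handling the block gave 14 falls, and without those arrays 6; in fatty acid oxidation median centring gave 5. In the list of citrate cycle genes 5 of 25 fell (20%, against 12.4% of all genes) and 1 rose.

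Glucose metabolism was mixed, 10 higher and 3 lower of 37. Slc2a6, a lysosomal hexose transporter, stood at 1.57, 2.14, 2.00, 2.11 and 1.92 and then at 4.97, 4.90, 4.88, 4.57 and 4.22, a 6.78-fold rise, 2.76 ± 0.24 (SE, limma adjusted p = 9.55e-09). Egln3, an oxygen-sensing hydroxylase, rose by 2.20 ± 0.51 (SE, limma adjusted p = 0.00185), but unstimulated replicate 1 stood at -4.20, far below the others, and the call was lost without the 4 arrays that stand apart. Aldoa, a core glycolytic enzyme, was at -0.51 ± 0.56 (SE, limma adjusted p = 0.534). Of the cell cycle genes, 4 rose and 4 fell among 52, with a median of -0.29. These shares, 7.69% each, were below the 14.2% and 12.4% of all genes. Ccnd2, a G1 cyclin, rose 14.1-fold, from -1.17, -1.28, -1.45, -1.42 and -1.0 to 2.93, 3.17, 3.24, 1.91 and 1.5, 3.81 ± 0.41 (SE, limma adjusted p = 1.97e-07), and its partner kinase Cdk6 4.13-fold, 2.05 ± 0.23 (SE, limma adjusted p = 5.38e-07). Cdc25b, a phosphatase for entry into mitosis, fell by 1.82 (SE 0.36, limma adjusted p = 0.000399). In cell death and survival 12 of 28 rose and 2 fell. Gadd45b rose 9.93-fold, 3.31 ± 0.48 (SE, limma adjusted p = 1.22e-05), Cflar, which blocks caspase-8, 5.88-fold, 2.56 ± 0.45 (SE, limma adjusted p = 0.000112), and the death receptor Fas 5.37-fold, 2.42 ± 0.27 (SE, limma adjusted p = 3.51e-07). The BH3-only gene Bbc3, which encodes PUMA, fell from 1.32, 1.09, 1.13, 1.06 and 1.23 to 0.49, 0.28, 0.08, -0.01 and 0.53, -0.89 ± 0.17 (SE, limma adjusted p = 0.000216).

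G-protein and cAMP signalling moved both ways, 7 higher and 9 lower of 29. Pde4b, which breaks down cAMP, stood at -1.14, -0.13, -0.32, -0.08 and -0.38 and then at 1.96, 2.25, 2.35, 2.17 and 1.80, 2.51 ± 0.31 (SE, limma adjusted p = 1.39e-06). The adenosine receptor Adora2b stood at -0.05, 0.73, 0.60, 0.67 and 0.75 and then at 2.55, 2.82, 2.79, 3.07 and 2.56, 2.22 ± 0.23 (SE, limma adjusted p = 1.59e-07). Among the falls, the kinase subunit Prkar2b changed by -1.10 ± 0.25 (SE, limma adjusted p = 0.00129). Adcy3, an adenylate cyclase, fell and was not well above background on any LPS array (limma adjusted p = 1.80e-05). The MS4A genes, which encode proteins that span the membrane repeatedly, rose in 6 of 8 tested, 3 of the 6 not well above background on all unstimulated arrays, with a median of 2.53. Ms4a4d was below background on every unstimulated array and stood at 3.90, 4.40, 4.51, 5.67 and 4.80 at 6 h, at least 23.1-fold higher (limma adjusted p = 2.52e-05), and Ms4a4b rose 22.5-fold, 4.49 ± 0.72 (SE, limma adjusted p = 3.47e-05). SLAM receptors and adaptors rose in 6 of 10 and fell in 1: Slamf7 stood at 1.61, 2.25, 2.03, 1.86 and 0.84 and then at 4.86, 4.98, 4.97, 4.36 and 3.57, 2.83 ± 0.43 (SE, limma adjusted p = 1.80e-05), and the adaptor gene Sh2d1b1 fell from 3.53, 3.46, 3.28, 3.71 and 4.47 to 0.96, 0.42, 0.11, 2.19 and 2.45, -2.46 ± 0.51 (SE, limma adjusted p = 0.000726). Without the 4 arrays that stand apart, 2 of the 10 rose.

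Further genes among the 15 largest falls belong to several functions. Slco2b1, an organic anion transporter, had the largest fall of all genes. It stood at 3.95, 3.72, 3.11, 3.60 and 3.87 and fell to 0.96, 0.06, -0.05, 0.07 and 1.31, -3.18 ± 0.46 (SE, limma adjusted p = 1.05e-05), or 9.05-fold. Cnr2, the cannabinoid receptor of leukocytes, stood at 3.83, 4.38, 4.05, 4.19 and 3.98 and then at 1.57, 1.16, 0.68, 0.66 and 1.38, -2.99 ± 0.38 (SE, limma adjusted p = 1.82e-06). Adgre5, which encodes CD97, stood at 1.71, 3.34, 3.22, 3.25 and 0.85 and then at 0.48, 0.09, -0.26, -1.39 and -0.29, -2.75 ± 0.62 (SE, limma adjusted p = 0.00153). Cd93, a receptor of phagocytes, stood at 5.12, 4.96, 4.91, 5.08 and 4.22 and then at 3.12, 2.56, 2.50, 1.2 and 2.16, -2.55 ± 0.71 (SE, limma adjusted p = 0.00795), a call lost without the 4 arrays that stand apart. Pald1 stood at 1.48, 1.88, 1.84, 1.76 and 1.88 and then at -0.62, -1.20, -1.26, -0.76 and -0.08, -2.56 ± 0.32 (SE, limma adjusted p = 1.76e-06). The kinase gene Aatk fell by 2.51, the arrestin gene Arrb1 by 2.44 and the phosphatidate phosphatase gene Lpin1 by 2.41, all without overlap. In the alternative activation list Cdh1, the E-cadherin gene, fell from 5.19, 4.38, 3.99, 4.34 and 5.66 to 3.03, 2.30, 2.43, 1.56 and 3.43, -2.16 ± 0.42 (SE, limma adjusted p = 0.000348), and with Klf4 and Pparg made up its 3 falls of 15, with none higher.

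The response was then set beside that of control cells, whose 6 h arrays include the 1 that went against its label. Over the 734 strong rises the median change was 1.65 in the knockout and 1.05 in the control, and over the 367 strong falls -1.27 and -0.79; both sets were chosen in the knockout, which favours its values. The difference of the 2 responses was called in 49 genes (0.435%), 33 with a higher and 16 with a lower value in the knockout, and 46 of them were also called in the knockout response. Of the 734 strong rises, 25 responded more in the knockout and 0 less. Of the 367 strong falls, 9 had a lower value there and 0 a higher one. Choosing both sets by their knockout response favours such one-sided counts, since the difference uses the same knockout arrays. The counts are therefore no test of direction. Without the 2 arrays on the later slide all 49 kept their call and direction, and 143 genes were called, 93 higher and 50 lower. With the replicate block 154 were called, 95 higher and 59 lower. With slide as a fixed block 35 were called, and 17 of the 19 genes whose differences are given below lost their call. For Il6 the difference was 4.15 ± 1.47 (SE, limma adjusted p = 0.339) and for Cxcl10 3.03 ± 1.72 (SE, limma adjusted p = 0.734), which were not called. Both include the control array that went against its label, which lowers the control mean at 6 h and so raises the difference. That array stood at -0.65 for Il6 against 7.19 to 7.88 on the other control arrays at 6 h. For Cxcl10 it stood at -1.45 against 5.42 to 8.58.

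Slc1a2, a glutamate transporter, had the largest difference among the 49 called genes. It stood at 0.15, -0.04, 0.18, 0.18 and 0.18 in the unstimulated knockout and at 3.78, 3.80, 3.93, 3.33 and 2.42 at 6 h, and in the control at 0.44, 0.42, 0.17, 0.46 and 0.27 and then 0.52, 0.74, 0.35, 1.11 and 0.74. The difference of the responses was 2.98 ± 0.44 (SE, limma adjusted p = 0.000783), and 2.89 without the later slide. Csf2 behaved alike: control arrays stood at -0.23, -0.18, -0.17, -0.37 and -0.14 unstimulated and at -0.05, -0.12, -0.18, 0.20 and 0.18 at 6 h, and the difference was 2.66 ± 0.42 (SE, limma adjusted p = 0.00242). Neither gene was well above background on any unstimulated knockout array, so both differences rest on fitted values below background and are no bounds. For Csf2, not 1 control array reached the lowest knockout array at 6 h, which was 1.33. Icosl started lower in the knockout than in the control, which stood at 2.18, 2.18, 2.39, 2.21 and 1.88, while the 6 h arrays of the control stood at 3.91, 4.05, 2.36, 2.52 and 2.78 and overlapped those of the knockout. Its difference was 2.53 ± 0.43 (SE, limma adjusted p = 0.00441). Traf1 differed in its start: control arrays stood at 4.23, 4.30, 3.71, 4.05 and 3.69 unstimulated and at 5.64, 5.78, 2.80, 5.31 and 5.56 at 6 h, so that the levels of both genotypes lay close together at 6 h except on the array that went against its label. Its difference was 2.58 ± 0.54 (SE, limma adjusted p = 0.0197), and 2.03 without the later slide.

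Other larger responses in the knockout were those of the GTPase Gbp2, with 2.42, Zbp1, with 2.39, Calcrl, a receptor for calcitonin gene-related peptide, with 2.34, Pde4b, with 2.33, Jak2, with 1.80, Slc2a6, with 1.76, and Adora2b, with 1.66. Gbp2 stood at -0.02, 1.10, 0.99, 1.11 and -0.02 and then at 4.34, 4.37, 4.38, 3.89 and 3.94 in the knockout, 3.55 ± 0.33 (SE, limma adjusted p = 3.12e-08). Calcrl stood at 2.08, 2.29, 2.29, 2.29 and 1.95 and then at 5.20, 5.45, 5.38, 4.66 and 4.33, 2.83 ± 0.30 (SE, limma adjusted p = 1.97e-07). Pde4b in the control stood at 1.33, 1.38, 1.51, 1.15 and 1.03 unstimulated and at 2.13, 2.05, -0.46, 2.00 and 1.61 at 6 h, with the array that went against its label far below the other 4. Pde4b thus started lower in the knockout, and apart from that array the levels of both genotypes lay close together at 6 h. The maturation gene Icam1, the NF-kB inhibitor Nfkbie and the immunoproteasome gene Psmb8 were among the 33 as well.

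Larger falls in the knockout included Flvcr2, which encodes a choline and heme transporter. It stood at 4.01, 2.96, 2.44, 2.81 and 3.58 and then at 1.30, 0.53, 0.42, 0.45 and 1.36, -2.35 ± 0.28 (SE, limma adjusted p = 8.35e-07), while control arrays stood at 0.61, 0.88, 0.72, 0.30 and 0.40 and then 0.61, 0.54, 1.11, 0.04 and -0.07. The difference was -2.21 ± 0.39 (SE, limma adjusted p = 0.00463). All unstimulated knockout arrays stood above those of the control, while the 6 h arrays of the genotypes overlapped, so Flvcr2 differed in its start. Cisd1, an iron-sulphur protein of the outer mitochondrial membrane, stood at 0.76, 1.17, 0.85, 1.17 and 0.84 and then at -0.65, -0.99, -1.06, -0.84 and -0.51, -1.77 ± 0.16 (SE, limma adjusted p = 1.54e-08), against -0.27, -0.26, -0.12, -0.13 and -0.19 and then -1.04, -1.07, 0.15, -0.73 and -0.79 in the control. Its difference was -1.26 ± 0.22 (SE, limma adjusted p = 0.00463). Cisd1 likewise started higher in the knockout on all arrays, and the genotypes overlapped at 6 h. Clec9a, the receptor of classical type 1 dendritic cells for dead cells, stood at 1.69, 2.20, 2.08, 2.03 and 1.22 in the unstimulated knockout and was not well above background on any LPS array, at least 2.60-fold lower. Control arrays stood at 0.43, 0.57, 0.25, 0.02 and 0.22 and then at 0.23, 0.48, 0.43, 0.05 and 0.05, also not well above background on any unstimulated array. The fitted difference, -1.35 ± 0.22 (SE, limma adjusted p = 0.0028), rests on such values and is no bound. Tcf7l2, a nuclear factor of Wnt signalling, had a difference of -2.04, the scaffold gene Dixdc1 one of -1.81 and the Frizzled receptor Fzd4 one of -1.06. The differences of Rassf3 and Adcy3 were -1.24 and -1.02. Leaving out single arrays ended the call of Fzd4 in 15 of 20 cases, of Adcy3 and Tcf7l2 in 10 each, of Jak2 in 7 and of Rassf3 in 5.

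**Figure D4:**
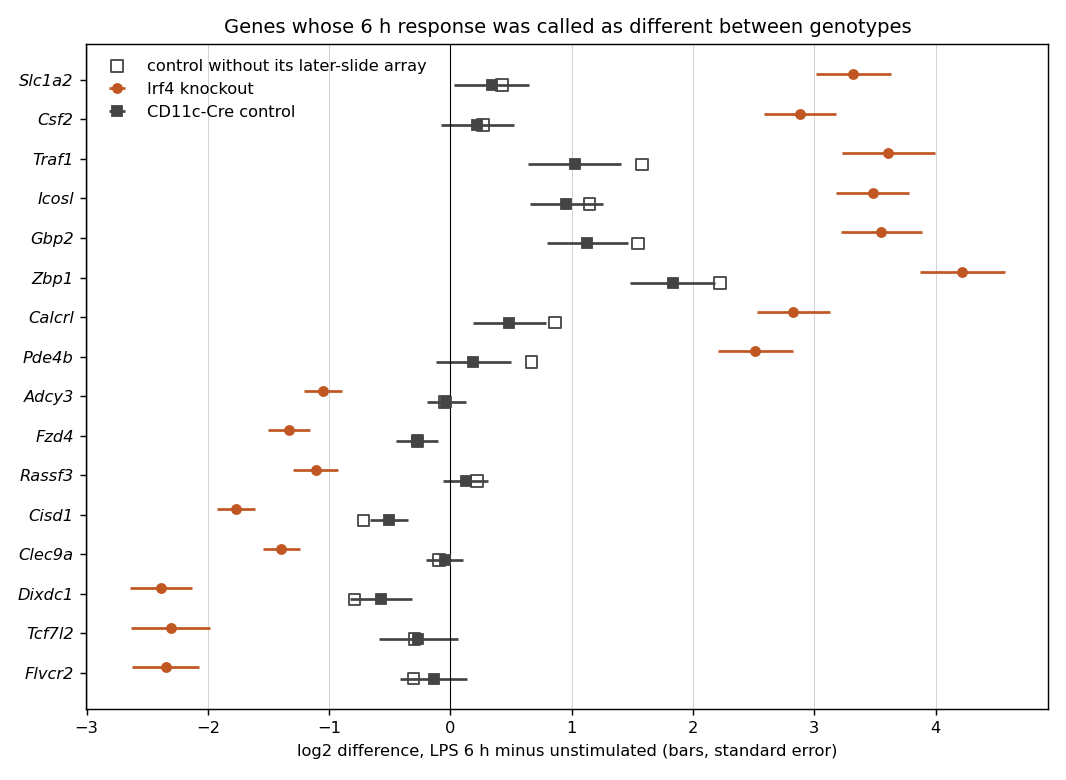
Change from unstimulated to LPS 6 h (horizontal axis, log2 difference with standard error) in the knockout (circles) and the control (filled squares) for genes whose responses were called as different, the 8 with the highest and the 8 with the lowest difference. Open squares give the control without its array on the later slide. For Slc1a2 the knockout changed by 3.32 and the control by 0.34, and for Flvcr2 by -2.35 and -0.14.

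Set against 24 h in the same genotype, the 6 h response was partly transient. At 24 h 398 genes were higher (3.54%) and 473 lower (4.20%) than at 6 h. Without the 2 control arrays on the later slide 694 were higher and 790 lower, and with the replicate block 993 and 1027. Of the 734 strong rises, 172 had come down by 24 h, 8 had gone further up and 554 were not called, and of the 367 strong falls 50 had recovered in part or whole, 2 had gone further down and 315 were not called. These 2 comparisons share the 6 h arrays, so a gene that was high there by error would tend to come down. No slide held knockout arrays of both times, so no comparison of the times within a slide was possible.

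Among the genes named here, Edn1 came down the furthest of those whose call held with each array left out. It stood at 0.10, 0.17, 0.61, 1.18 and 1.24 at 24 h, -3.31 ± 0.59 from 6 h (SE, limma adjusted p = 0.000924). Calhm6, a channel protein gene induced by interferon, stood at 4.71, 4.96, 5.18, 5.32 and 4.59 at 6 h and 2.20, 2.4, 2.89, 1.86 and 1.46 at 24 h, -2.79 ± 0.62 (SE, limma adjusted p = 0.00518). Csf2 returned to -0.02, -0.18, 0.60, 0.89 and 0.99, where replicate 2 stood within the range of the unstimulated arrays, -2.21 ± 0.30 (SE, limma adjusted p = 4.32e-05). Icosl came down by 1.96 (limma adjusted p = 0.000183). Cxcl10 stood at 4.82, 5.08, 5.88, 2.87 and 2.73, -4.04 ± 1.21 (SE, limma adjusted p = 0.0379), a call that ended in 8 of 10 cases when 1 array was left out, with p up to 0.101. Lhx2, Plet1, Tnfsf8 and the transcription factor gene Tsc22d1 came down by 2.67, 2.60, 2.28 and 2.25. Lcn2 went further up, to 3.72, 4.03, 3.89, 3.12 and 3.14, 1.90 ± 0.48 (SE, limma adjusted p = 0.0127). Among the falls, Slc37a2, a sugar phosphate transporter of macrophages, stood at 1.88, 1.96, 1.84, 1.71 and 1.45 unstimulated, at 0.45, -0.25, -0.32, 0.05 and 0.29 at 6 h and at 1.63, 1.81, 1.82, 1.68 and 1.55 at 24 h, a recovery of 1.65 ± 0.25 (SE, limma adjusted p = 0.000129). Cnr2 recovered by 1.47 (limma adjusted p = 0.0152) and stayed below its start. Adam8 fell by 1.13 at 6 h, a call lost in 5 of 10 cases when 1 array was left out, and recovered by 1.68. With slide as a fixed block the sign of 24 against 6 h turned for Plet1 (3.17), Tnfsf8 (1.49), Adam8 (-2.49) and Slc37a2 (-0.14), none of them called there, and Csf2 lost its call. Cxcl3, Irf7 and Traf1 had 24 h levels that were not called as different from 6 h, at 0.06, 0.66 and -0.10.

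**Figure D5:**
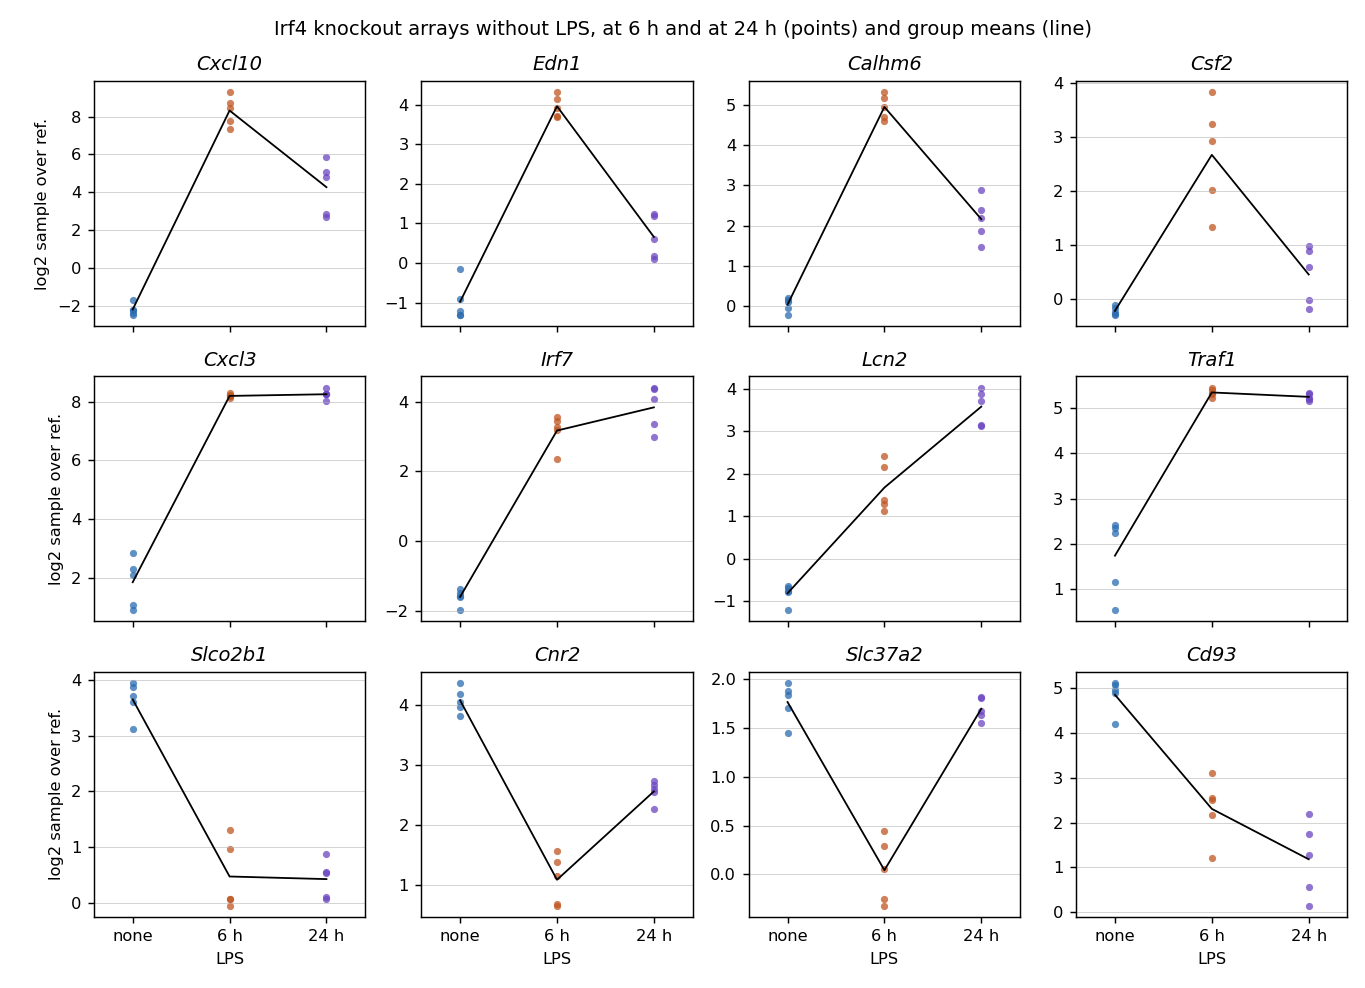
Level of 12 genes on each knockout array without LPS, at 6 h and at 24 h (points, log2 sample over reference, 5 arrays a time), with a line through the group means. Cxcl10, Edn1, Calhm6 and Csf2 peak at 6 h, Cxcl3 and Traf1 stay level after 6 h, Lcn2 climbs on, and Slc37a2 returns to its unstimulated level.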

How the data were processed

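RNA of CD11c+ BMDCs was labelled and 750 ng of cRNA hybridised to 2-colour arrays, per the labels' protocols. Spot intensity values in Cy5 and Cy3 with local background were deposited as scanned, written by Feature Extraction version 10.7.3.1 according to the file headers. Per the file headers, that software also made a normalised log10 ratio. The authors deposited a table of log2 ratios made with limma, per the submitters' processing notes, which name no version. Here, control spots (1639) were left out, background was corrected with normexp (offset 50), arrays were normalised by loess, and limma 3.58.1 in R 4.3.3 was fitted to all 30 arrays. Probes were named through RefSeq accessions (22951 of 41174 probes, 16358 genes). A gene was tested if well above background on all arrays of at least 1 group (11253 genes), by its brightest probe. A gene below background on every array of a group has only a bound: "at least" gives the brighter mean over the lowest signal well above background in Cy5, with no fold where that exceeded the fitted ratio. The number of arrays limits the precision.

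Genes given with values followed a rule: the 15 largest rises and falls without overlap, in each list the 4 largest called changes in its main direction, 2 in the other and up to 3 bright members not called, the Irf family, and the 8 largest called in each direction for the difference of responses and for 24 against 6 h. Further names without values were picked among called list members after their values were seen. The members and lists were chosen with earlier results of these data known. Same-numbered unstimulated and LPS arrays deviated together to differing degrees (correlations 0.300, 0.511, 0.419, 0.109 and 0.657). Unstimulated replicates 1, 2 and 5 correlated best with the LPS array of their own number, but 3 and 4 did so with LPS replicate 2. Whether the numbers pair the arrays is thus uncertain, and no label states it. Fits with a replicate block are given as an alternative beside counts they move. Simulated data for this comparison held 200 changed genes among 11253. There, 77.5% of rises of 1 (log2), 65% of falls of 1 and all rises of 2 were called, with 8 false calls. The simulated noise was drawn independently for each gene and array, without the subgroups and slides of the real arrays. These rates therefore cannot be carried over to the real calls. Alternatives in background correction, normalisation, filter, slides and single arrays are under the closing section. Some genes that the rule names are not reported here. MHC class II-low and -high subpopulations, named in the series title, were not analysed here.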

Additional observations from a re-analysis of the deposited data

Results flagged for a closer look

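Single arrays stood far from the other 4 of their group in 14 of the 262 sets of 5 values examined (131 genes in both groups), by Dixon's ratio of the gap to the range; chance flags about 1 in 20 sets. On unstimulated replicate 5 these were Cd93 at 4.22, Lpin1 at 0.53, Nceh1 at 2.82 and Tcf7l2 at 0.53 on the low side, and Zc3h12a at 1.24 and Ptges at -1.83 on the high side. On unstimulated replicate 1 they were Ptx3 at -3.79, Fpr1 at 1.36, Pde4b at -1.14, Adora2b at -0.054 and Lcn2 at -1.21, all low. Replicate 2 was low for Ifit2, at -1.35, and for Slc1a2, at -0.037. After LPS, replicate 3 was high for Plet1, at 6.22. Unstimulated replicates 1 and 5, the arrays that correlate less with the rest, hold 11 of the 14.

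The response to LPS at 6 h differed between genotypes, by the interaction in the limma fit, for these genes among those named. It was higher in the knockout for Slc1a2 (2.98), Csf2 (2.66), Traf1 (2.58), Icosl (2.53), Gbp2 (2.42), Zbp1 (2.39), Calcrl (2.34), Pde4b (2.33), Jak2 (1.80), Slc2a6 (1.76) and Adora2b (1.66). It was lower for Flvcr2 (-2.21), Tcf7l2 (-2.04), Dixdc1 (-1.81), Clec9a (-1.35), Cisd1 (-1.26), Rassf3 (-1.24), Fzd4 (-1.06) and Adcy3 (-1.02). Values are differences of log2 changes, knockout minus control. The array labelled control LPS 6 h replicate 3 stood with the unstimulated arrays, and without the later slide the differences of these 19 genes kept their direction and call. With slide as a fixed block 17 of the 19 lost their call, in a fit of only the arrays compared 7, and on Agilent's ratios and with median centring 6 each.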

How the results depend on the processing

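Of the 124 called genes given with values, 124 kept call and direction with backgrounds as scanned, offset 10, the authors' deposited log2 ratios, the Cy5 channel alone, the mean of a gene's probes, eBayes with trend, the replicate block, and fits of only the arrays compared, only the knockout arrays or without the later slide. Without 1 array 123 or 124 did, and without the 4 arrays that stand apart 120. The counts moved more. In the knockout response, median centring called 1885 genes (963 higher, 922 lower), the Cy5 channel 2125 lower, the replicate block 4776 (2428 and 2348), a term for replicates 1 to 3 against 4 and 5 4875 (2491 and 2384), and slide as a fixed block 893 (636 and 257), 642 of them at least 2-fold. The slide block rests on 1 LPS array beside 3 unstimulated ones and on links through control arrays; 22 of the 124 genes, Irf4 among them, lost their call under it. Leaving out 1 array gave 2522 to 2914 calls, 1373 to 1569 higher, 1144 to 1371 lower and 1024 to 1175 at least 2-fold. For the difference between genotypes, lower calls were 10 on Agilent's ratios, 5 with median centring, 9 with the stricter filter and 10 in a fit of only the arrays compared. Without the later slide 143 were called (93 higher, 50 lower, 84 at least 2-fold), with the replicate block 154 (95, 59, 85) and with the term for replicates 174 (112, 62, 90); the slide block gave 10 higher and 25 lower. Leaving out 1 array gave 35 to 81 calls, 27 to 50 higher, 8 to 32 lower and 28 to 55 at least 2-fold, with the most calls (81) without control LPS 6 h replicate 3. For 24 against 6 h, Agilent's ratios gave 351 at least 2-fold, median centring 371 calls (156 higher, 215 lower), the Cy5 channel 604 higher, only the knockout arrays 1419 (662, 757), no later slide 1484 (694, 790), slide as a random block 472 (223, 249), the replicate block 2020 (993, 1027), the term for replicates 2154 (1058, 1096) and the slide block 5841 (2956, 2885), 5596 of them at least 2-fold. Leaving out 1 array gave 491 to 927 calls, 231 to 431 higher, 260 to 496 lower and 141 to 283 at least 2-fold, the fewest without LPS 6 h replicate 3. Signs turned for Irf3 (-0.0363 on Agilent's ratios, -0.0992 with median centring, -0.0880 in Cy5, -0.0819 with the slide block, and -0.0040 to 0.0918 with 1 array left out, negative without unstimulated replicate 1), Irf8 (-0.00818 with median centring, -0.16 in Cy5) and Aldoa (0.33 with the slide block), none of them called, and under the slide block at 24 against 6 h for Cd69 (0.79), Plet1 (3.17), Tnfsf8 (1.49), Adam8 (-2.49) and Slc37a2 (-0.14). Causes of these shifts were not tested. Signal over background limits 182 genes to a bound.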
